A study of Mus musculus with 23 samples.

Results

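The perilipin, CIDE and lipid droplet genes are 10 genes whose proteins coat lipid droplets, fuse them, or cut and guard the triglyceride they store. They were taken by symbol from a table of RPKM (reads scaled to gene length and to library depth) that lists 24475 genes in 23 mouse liver libraries. All 10 were found: Plin2, Plin4 and Plin5 of the perilipin coat family, Cidea, Cideb and Cidec of the CIDE fusion family, the lipase genes Pnpla2 and Pnpla3, the lipase inhibitor G0s2 and the droplet enzyme Hsd17b13. The livers came from male C57BL/6J mice. They ate chow or HFD (high-fat diet) over 4 months, and then had 3 weeks of an antibody dosed at 10 mg/kg. REGN1193 blocks the glucagon receptor and is called the GCGR antibody below. REGN496 was taken as the isotype control by elimination, because the design names 1 isotype control without a code. The groups were control antibody on chow (5 libraries, 1 to 5), GCGR antibody on chow (6 libraries, 6 to 11), control antibody on HFD (6 libraries, 12 to 17) and GCGR antibody on HFD (6 libraries, 18 to 23), numbered as in the sample titles. The labels do not say that each library is a separate mouse, so the p-values speak only of the spread among libraries, which may be technical. They give neither the ages of the mice nor the composition of the HFD.

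A lipid droplet is a core of triglyceride and cholesteryl ester inside a single phospholipid layer that holds the coat proteins. Plin2 coats the droplets of hepatocytes, Plin5 ties droplets to mitochondria in tissues that burn fat, and Plin4 is best known from adipocytes. Cidea and Cidec promote transfer of lipid from small to large droplets and are typical of adipocytes and of fatty liver, whereas Cideb is the CIDE protein of normal hepatocytes and takes part in the lipidation of VLDL. Pnpla2 encodes ATGL, which removes the first fatty acid from triglyceride, and G0s2 inhibits ATGL. Pnpla3, a relative of ATGL, is raised by carbohydrate feeding in liver, and Hsd17b13 is a hepatocyte droplet protein. Glucagon signals in hepatocytes through cAMP, and blocking its receptor removes that signal.

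Upstream sequence is shown for Plin2 and Pnpla3, the only members that passed the test between antibodies (on HFD, Pnpla3 close to the threshold). It is also shown for both annotated starts of Cidec, because a gene-level value cannot tell these starts apart. Each run holds the 250 bases before an annotated start, 5′ to 3′ on the strand of the gene, from RefSeq on GRCm38.p6, and capitals mark motif matches. These starts need not be the ends of the gene spans given below. The runs of Plin2 and Pnpla3 reach into their gene spans, and that of Cidec start 2 lies within its span. Windows of Plin4 and Plin5, which are not printed, also reach into their spans.
Plin2, chr4:86670060-86670309, minus strand: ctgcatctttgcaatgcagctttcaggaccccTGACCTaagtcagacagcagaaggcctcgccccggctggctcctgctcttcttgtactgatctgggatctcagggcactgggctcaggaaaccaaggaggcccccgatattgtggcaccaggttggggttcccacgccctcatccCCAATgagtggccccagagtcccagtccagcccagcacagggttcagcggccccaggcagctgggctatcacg
Pnpla3, chr15:84167566-84167815, plus strand: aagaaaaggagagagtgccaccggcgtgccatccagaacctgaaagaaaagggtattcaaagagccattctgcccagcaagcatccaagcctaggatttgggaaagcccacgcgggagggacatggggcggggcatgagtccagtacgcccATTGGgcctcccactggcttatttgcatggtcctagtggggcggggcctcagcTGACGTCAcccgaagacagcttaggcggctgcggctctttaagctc
Cidec start 1, chr6:113435761-113436010, minus strand: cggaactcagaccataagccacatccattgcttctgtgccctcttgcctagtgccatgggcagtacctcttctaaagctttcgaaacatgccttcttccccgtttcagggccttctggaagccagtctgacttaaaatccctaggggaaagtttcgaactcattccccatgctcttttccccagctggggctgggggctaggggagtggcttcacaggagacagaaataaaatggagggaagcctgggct
Cidec start 2, chr6:113434765-113435014, minus strand: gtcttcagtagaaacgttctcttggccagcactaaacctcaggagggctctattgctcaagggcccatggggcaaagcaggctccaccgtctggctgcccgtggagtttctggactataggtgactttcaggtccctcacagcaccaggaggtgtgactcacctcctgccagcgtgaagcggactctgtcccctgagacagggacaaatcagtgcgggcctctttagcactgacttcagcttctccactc
Letters of 6 motifs were searched on both strands: the cAMP response element TGACGTCA, the E-box CACGTG, the PPAR-RXR half-site AGGTCA, its direct repeat with a 1-base spacer (which contains the half-site), the CCAAT box CCAAT and the TATA box TATAAA. Distances are to the start used for the window. Pnpla3 holds TGACGTCA 46 bases before this start, and 1.55% of 32851 such windows hold these letters. By the coordinates, this match crosses the first base of the Pnpla3 gene span, and the CCAAT of Plin2 lies inside the Plin2 gene span. Plin2 holds AGGTCA on the opposite strand (printed as TGACCT) 218 bases before its start, where 14.02% of windows hold it, and CCAAT 73 bases before it, where 33.8% do. Pnpla3 also holds CCAAT, on the opposite strand (printed as ATTGG), 99 bases before its start. Neither Cidec window holds any of the 6, and the starts lie 996 bases apart. Among the members not printed, Plin5 and Hsd17b13 hold AGGTCA, Plin4 and Plin5 hold CCAAT, and Cideb holds TATAAA, which 12.4% of windows hold. Plin5, like Cidec, has 2 annotated starts, and only the window of its start 1 holds these letters. The E-box (6.02% of windows) and the direct repeat (0.0335%) were found in none of the members' windows. A match describes letters and not a bound site. Sequences were found for 9 of the 10 members, and Cidea is shown by position only.

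The members are spread over the genome (GRCm38.p6): Plin2 on chromosome 4 (86626910 to 86670217), Cidea on 18 (67343564 to 67367794), Cideb on 14 (55754052 to 55758424), Cidec on 6 (113424634 to 113435760), Pnpla2 on 7 (141455188 to 141460743), Pnpla3 on 15 (84167776 to 84189521), G0s2 on 1 (193272160 to 193273188) and Hsd17b13 on 5 (103955442 to 103977388). Plin4 (56100587 to 56109948) and Plin5 (56111597 to 56117606) are neighbours on chromosome 17, on the same strand with 1648 bases between them. The strand setting of the counting is not given in the sources used here, so reads of genes that overlap a member cannot be told apart with certainty. Hdgfl2, which overlaps Plin4, stood at 9.77 to 13.2 RPKM over all libraries, above Plin4 in most of them. B430212C06Rik, which overlaps Cidea, averaged 0.019 RPKM on chow and 0.301 on HFD under control antibody. Nop9 and Ltb4r2, which overlap Cideb, did not exceed 5.22 RPKM. Mir6392, inside Pnpla3, was at 0 in 3 groups and at 0.55 RPKM in its highest library of GCGR antibody on HFD.

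Hepatocyte transcripts were abundant in every library (Alb, the albumin gene, at 26485 to 40885 RPKM), so the libraries carry the defining markers of the labelled tissue. Summed RPKM ranged from 594026 to 692295 over the libraries, and relative depth, read from the steps that single reads leave in low values, from 0.864 to 1.15. Libraries 19 and 20, both of GCGR antibody on HFD, resembled the rest of that group least: their mean correlations with its other libraries were 0.980 and 0.979, and the median of such means over all 23 libraries was 0.990. Results that rest on them are given with and without them, a choice made after seeing the data. In bulk liver RNA, fewer cells of a type and less RNA per cell cannot be told apart.

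Because RPKM is scaled to gene length, levels can be set side by side. Under control antibody on chow, Plin2 (213 ± 50.6 RPKM, mean ± SD, n = 5) and Hsd17b13 (212 ± 19.7) were highest and overlapped. Cideb (172 ± 10.8), G0s2 (65.6 ± 28.9), Pnpla2 (23.1 ± 2.58) and Plin5 (15.8 ± 2.56) followed, each without overlap with the next. Plin4 (2.46 ± 1.69), Cidec (1.88 ± 1.496), Cidea (0.373 ± 0.249) and Pnpla3 (0.119 ± 0.055) were low, and each overlapped the next in this order. On HFD under control antibody the order changed: Plin2 (348 ± 57.6, n = 6), Cideb (254 ± 21.5), G0s2 (242 ± 46.3) and Hsd17b13 (233 ± 34.8) overlapped one after the other, Pnpla2, Plin5, Cidec, Cidea and Plin4 formed a chain of overlapping ranges from 27.1 down to 1.22 RPKM, and Pnpla3 (0.385 ± 0.294) lay below them all.

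**Figure D1:**
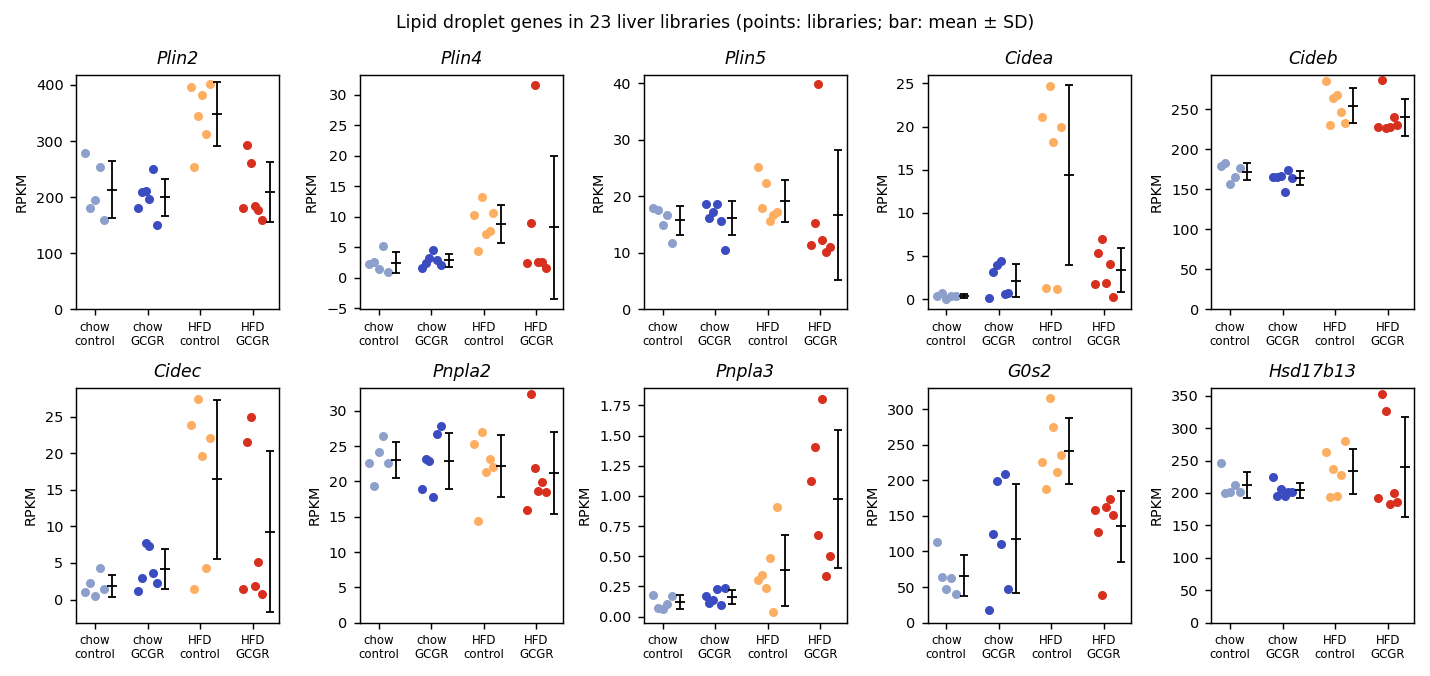
RPKM (vertical axes, 1 panel per gene, linear and separately scaled) of the 10 lipid droplet genes by group; each point is 1 library, and the bar beside the points gives the mean ± SD (n = 5, 6, 6 and 6). Plin2 averages 348 RPKM on HFD with control antibody and 199 to 213 in the other groups, and Cidea and Cidec split into high and low libraries within the HFD control group.

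The first comparison asks what HFD did to these genes under control antibody. HFD raised 6 of the 10 members, and 4 did not pass the test (limma on log2(RPKM + 1), adjusted p under 0.05 over 11939 genes). Over all tested genes, 11.6% were called higher and 18.3% lower, 29.9% in either direction. The 6 were Plin2, Plin4, Cidea, Cideb, Cidec and G0s2, whereas Plin5, Pnpla2, Pnpla3 and Hsd17b13 were not called. The median log2 fold change of the 10 was 0.64, against -0.03 for all tested genes. The members were chosen with earlier results of these data known, so these contrasts with all genes are no independent evidence. The count was also 6 without libraries 19 and 20. These lie outside the groups compared and enter mainly through the shared estimate of the spread, so this says little about the calls. An exact rank-sum test called 4 (Plin2 and Cidec were lost, at adjusted p = 0.0602 and 0.0872).

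Among the coat genes, Plin2 stood at 279, 180, 194, 253 and 160 RPKM in libraries 1 to 5 on chow. On HFD its lowest, median and highest values were 253, 363 and 401. The HFD library with the lowest value, library 13, lay at the level of chow library 4 and below chow library 1, and the other 5 HFD libraries lay above all of chow. Plin2 rose by 0.72 ± 0.17 (log2 fold change ± SE, adjusted p = 0.00326). Plin4 was at 2.24, 2.51, 1.33, 5.25 and 0.962 RPKM on chow and at 4.35, 8.91 and 13.2 (lowest, median, highest) on HFD. Chow library 4 lay within the HFD range and the other chow libraries below it, and Plin4 rose by 1.56 ± 0.47 (adjusted p = 0.0151). Its neighbour Plin5 moved from 15.8 ± 2.56 to 19.1 ± 3.75 RPKM and was not called (0.26 ± 0.24, 95% interval -0.23 to 0.75, adjusted p = 0.432).

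Of the fusion genes, Cidea had the largest change of all members. Its chow values were 0.325, 0.751, 0.0615, 0.417 and 0.310 RPKM, which steps in the low values place at 7, 13, 1, 8 and 6 reads. On HFD it stood at 21.1, 1.30, 24.7, 18.2, 1.22 and 19.9 RPKM in libraries 12 to 17, or 23 to 510 reads. Every HFD library was above every chow library, with libraries 13 and 16 far below the other 4. The mean was 38.6 times higher, and on the log2(RPKM + 1) scale, which compresses low values, Cidea rose by 2.92 ± 0.63 (adjusted p = 0.00174). Cidec followed the same libraries, at 23.8, 1.39, 27.5, 19.7, 4.25 and 22.02 RPKM on HFD. On chow it was at 0.984, 2.29, 0.462, 4.27 and 1.38, so libraries 13 and 16 overlapped the chow range. Cidec rose by 2.29 ± 0.70 (adjusted p = 0.0173). Cideb was far steadier, with 178, 183, 156, 165 and 176 RPKM on chow and 231, 255 and 285 (lowest, median, highest) on HFD. The ranges did not touch, and Cideb rose by 0.56 ± 0.07 (adjusted p = 6.97e-06).

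G0s2, the inhibitor of ATGL, stood at 114, 64.0, 47.4, 62.8 and 39.7 RPKM on chow and at 187, 231 and 315 (lowest, median, highest) on HFD. No library overlapped, and G0s2 rose by 1.94 ± 0.48 (adjusted p = 0.00434). Pnpla2, which encodes the lipase itself, averaged 23.1 ± 2.58 and 22.2 ± 4.40 RPKM (-0.07 ± 0.16, 95% interval -0.39 to 0.25, adjusted p = 0.773). Hsd17b13 averaged 212 ± 19.7 and 233 ± 34.8 RPKM (0.13 ± 0.15, adjusted p = 0.550). Ranges without overlap were thus seen in Cidea, Cideb and G0s2, that is 3 of 10 members, against 15.9% of all tested genes.

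**Figure D2:**
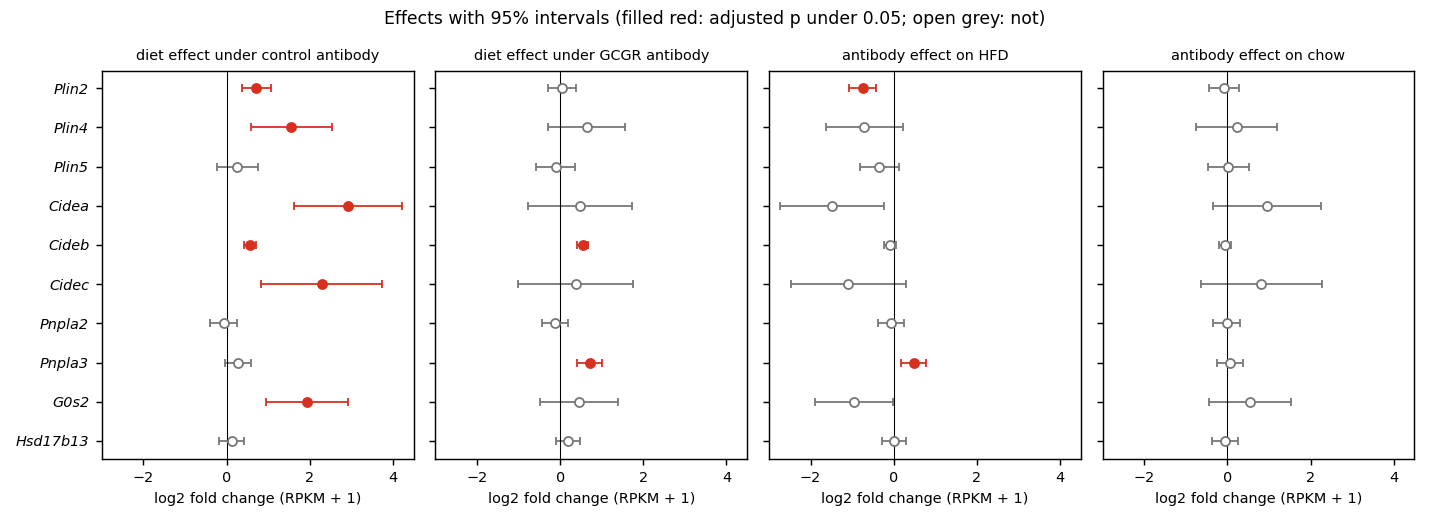
Log2 fold changes on the log2(RPKM + 1) scale (horizontal axes) of the 10 genes (rows) in 4 comparisons, with 95% intervals; filled red points passed adjusted p under 0.05 and open grey points did not. With HFD 6 genes were called higher under control antibody and 2 under GCGR antibody. Between antibodies on HFD, Plin2 was called lower and Pnpla3 higher. The Pnpla3 call was close to the threshold, and this gene passed the filter only through libraries 17 to 21.

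The second comparison asks what the GCGR antibody did on HFD. It shares the 6 control antibody libraries on HFD with the diet comparison above, so a high or low value there enters both. One member fell, Plin2, and 1 rose, Pnpla3, where 2.12% of all tested genes fell and 5.33% rose, 7.45% in either direction. Plin2 was at 396, 253, 344, 382, 312 and 401 RPKM in libraries 12 to 17 with control antibody. With GCGR antibody it was at 181, 292, 261, 185, 177 and 159 in libraries 18 to 23. Libraries 19 and 20 were the highest of the treated group and lay just above control library 13, and the other 4 treated libraries lay below all controls. The mean fell from 348 ± 57.6 to 209 ± 54.0 RPKM, a log2 fold change of -0.75 ± 0.16 (95% interval -1.09 to -0.42, adjusted p = 0.00548). Without libraries 19 and 20 it was -0.97 (adjusted p = 0.000366). This omission was chosen after seeing the data and takes out the highest treated values, so a larger fall had to follow. The exact rank-sum test, which called no gene in this comparison, gave adjusted p = 0.127.

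Pnpla3, the ATGL relative, was the member with the lowest level. It stood at 0.302, 0.341, 0.236, 0.488, 0.0386 and 0.906 RPKM with control antibody and at 1.12, 1.41, 0.678, 1.81, 0.334 and 0.498 with GCGR antibody. Treated libraries 20, 22 and 23 lay within the control range, and libraries 18, 19 and 21 above it. The log2 fold change was 0.49 ± 0.15 (adjusted p = 0.0429). The call was close to the threshold and was lost under 14 of its 27 alternatives, among them every pseudocount tried below 1 (adjusted p = 0.0574 and 0.0789) the fit on the HFD groups alone (0.165) and the fits without library 4, 7, 8, 12, 13, 14, 15 or 16 (0.0503 to 0.0995). Pnpla3 also only just entered the test, which asked for 0.5 RPKM in 5 libraries: libraries 17 to 21, all on HFD, were the 5 that reached it, and the other 18 did not. Without any 1 of these 5 it was not tested. Its values did not fall on whole-read steps, so the reads behind them are not given.

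The other 8 members were not called. G0s2 was the only member whose ranges did not overlap (1 of 10, against 2.85% of all tested genes): it stood at 187 to 315 RPKM with control and at 158, 127, 38.9, 163, 174 and 151 with GCGR antibody, yet its log2 fold change of -0.95 ± 0.45 had an adjusted p of 0.202. Cidea moved from 14.4 ± 10.4 to 3.36 ± 2.54 RPKM (-1.48 ± 0.60, adjusted p = 0.133). Control libraries 13 and 16 lay within the treated range of 0.226 to 6.96, and without library 13 or 16 the call was made (adjusted p = 0.0403 and 0.0460). Cidec averaged 16.4 ± 10.9 and 9.28 ± 10.96 RPKM (-1.09 ± 0.67, adjusted p = 0.324; without libraries 19 and 20, -2.10 and 0.0278), and its treated libraries were at 1.46, 21.5, 24.9, 1.88, 5.10 and 0.773. Libraries 19 and 20 were as high as the 4 high controls, and the other 4 treated libraries were at or under 5.10. Cideb (-0.09 ± 0.07, 95% interval -0.22 to 0.05, adjusted p = 0.441), Pnpla2 (-0.07 ± 0.15, interval -0.38 to 0.24, 0.801) and Hsd17b13 (-0.00 ± 0.14, interval -0.29 to 0.29, 0.999) had the values nearest to 0.

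Library 20 decided the calls of the other coat genes. Plin4 was at 2.36, 8.96, 31.5, 2.49, 2.63 and 1.65 RPKM with GCGR antibody, against 4.35 to 13.2 with control, and Plin5 at 11.4, 15.2, 39.8, 12.3, 10.1 and 11.03, against 15.5 to 25.1. Library 20 was the highest of all 23 for both genes. The log2 fold changes were -0.71 ± 0.44 for Plin4 and -0.35 ± 0.23 for Plin5 (adjusted p = 0.340 and 0.361). Without library 20 both were called lower (-1.21 and -0.62, adjusted p = 0.0237 and 0.00950). Without libraries 19 and 20 together, 5 members were called lower on HFD, namely Plin2, Plin4, Plin5, Cidec and Hsd17b13, and 0 were called higher, since Pnpla3 then no longer entered the test. Over all tested genes the calls in this setting were 836 higher and 469 lower, against 636 and 253 with all libraries. The summed stellate cell and matrix markers were also highest in libraries 19 and 20 (39.3 and 54.7 RPKM, against 15.9 to 29.99 in the other 4 treated libraries). In this group the collagen genes Col3a1 and Col1a1 reached 27.3 and 12.2 RPKM, and Lrat, Des, Reln, Pdgfrb and Acta2 did not exceed 6.88. The part of these markers in the members' values was not tested.

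**Figure D3:**
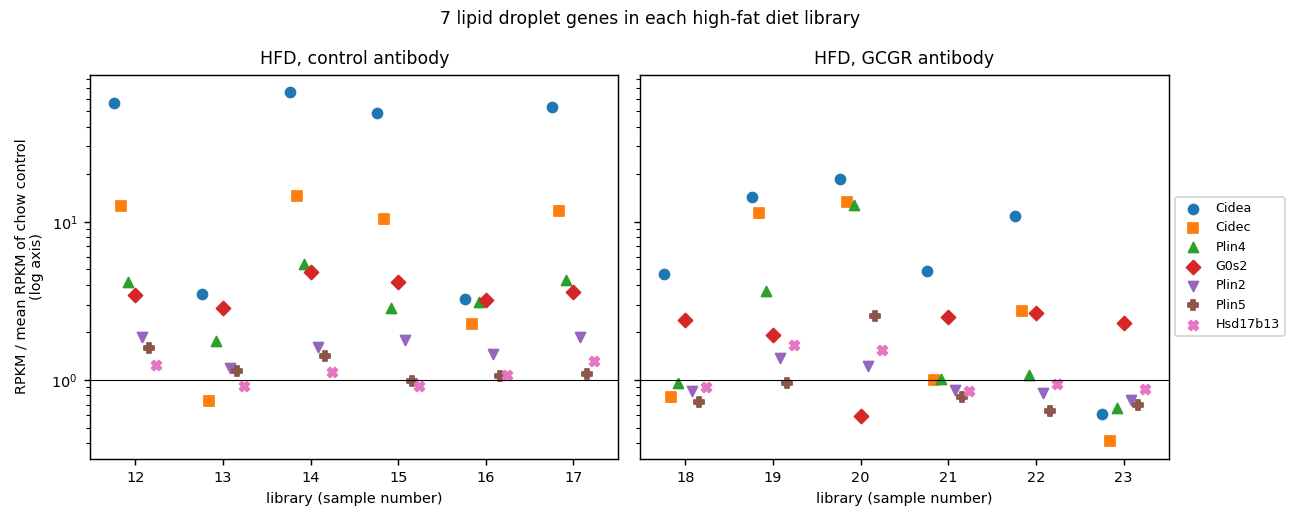
RPKM of 7 lipid droplet genes in each HFD library, divided by the mean of the chow control group (vertical axis, logarithmic), for control antibody (left, libraries 12 to 17) and GCGR antibody (right, libraries 18 to 23); each symbol is 1 gene and points are shifted sideways so that they do not hide each other. Cidea and Cidec are high together in libraries 12, 14, 15 and 17 and low in 13 and 16, and in libraries 19 and 20 Cidec reaches the level of the high controls.

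Within the HFD libraries Cidea and Cidec were high or low in the same controls, and their ratio differed. In control libraries 12, 14, 15 and 17 Cidea was at 0.886 to 0.923 of the Cidec level, and in the low controls 13 and 16 at 0.934 and 0.288. With GCGR antibody the ratio was 0.250 and 0.279 in libraries 19 and 20, where Cidec was high, and 1.18, 0.965, 0.799 and 0.292 in libraries 18, 21, 22 and 23. Hsd17b13 was at 353 and 327 RPKM in libraries 19 and 20 and at 182 to 200 in the other 4 treated livers. G0s2 went the other way in library 20, where it was lowest of the HFD libraries at 38.9 RPKM. As samples separate into high and low libraries, no correlation between members is given.

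On chow, the GCGR antibody called 0 of 10 members with limma, where 0.394% of all tested genes rose and 0.553% fell, 0.946% in either direction. None had an unadjusted p under 0.05 and the exact rank-sum test also called 0. No member's ranges were free of overlap (2.5% of all tested genes were). Plin2 averaged 213 ± 50.6 RPKM with control and 199 ± 33.2 with GCGR antibody (-0.08 ± 0.17, 95% interval -0.43 to 0.27, adjusted p = 0.918). The widest interval among the members was that of Cidec (0.82 ± 0.70, -0.63 to 2.27, adjusted p = 0.735). Cidea stood at 0.104, 3.17, 3.91, 4.37, 0.583 and 0.736 RPKM in libraries 6 to 11 (0.96 ± 0.63, adjusted p = 0.636), which is 2 to 77 reads. Libraries 7 to 9 were above every chow control and the other 3 lay within the control range. G0s2 ranged from 18.2 to 209 RPKM with GCGR antibody, around the control range of 39.7 to 114 (0.54 ± 0.48, adjusted p = 0.748).

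Under GCGR antibody, HFD raised 2 of the 10 members, Cideb and Pnpla3, and lowered 0, where 13.2% of all tested genes rose and 16.6% fell, 29.8% in either direction. These were also the only members without overlap (2 of 10, against 10.3% of all tested genes). Cideb rose from 164 ± 8.88 to 239 ± 23.4 RPKM (0.54 ± 0.07, adjusted p = 4.05e-06). This is close to its diet effect under control antibody (0.56 ± 0.07), in a comparison that shares no library with it. Pnpla3 rose from 0.165 ± 0.058 to 0.974 ± 0.570 RPKM (0.71 ± 0.15, adjusted p = 9.11e-04), a call that held under the 27 alternatives that could test it. Pnpla3 entered the test only through libraries 17 to 21, and 18 to 21 of these belong to the higher group here. Its call, the alternatives that kept it and its lack of overlap all depend on these libraries, so none is read as support. In the remaining alternatives Pnpla3 failed the filter, so its call there is unknown. Plin2 was at 199 ± 33.2 and 209 ± 54.0 RPKM (0.05 ± 0.16, 95% interval -0.29 to 0.38, adjusted p = 0.848). Cidea, Cidec, Plin4 and G0s2 were not called (adjusted p = 0.577, 0.702, 0.292 and 0.479). Their intervals were wide, the widest that of Cidec from -1.004 to 1.75. Without library 20, Plin5 was called lower with HFD (-0.39, adjusted p = 0.0420; -0.47 and 0.0221 without libraries 19 and 20). Plin5 is not called with all libraries (-0.11 ± 0.23, 0.745).

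The difference between the antibody effects on HFD and chow was called for 0 of 10 members with limma, where 0.126% of all tested genes were higher and 0.0754% lower, 0.201% in either direction. Plin2 (-0.67 ± 0.23), Cidea (-2.44 ± 0.87) and G0s2 (-1.49 ± 0.66) had an unadjusted p under 0.05, and their adjusted p were 0.313, 0.329 and 0.456. A lower Plin2 with GCGR antibody on HFD and not on chow is therefore not shown to depend on diet. Without libraries 19 and 20 the difference was called for Plin2 and Plin4 (adjusted p = 0.0406 and 0.0290). In that setting 131 of all tested genes were called, against 24 with all libraries. Because this contrast holds all groups, its HFD part shares libraries with the comparisons above.

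Genes with the most similar profile over the 23 libraries were taken by Pearson's r of log2(RPKM + 1), as a description. The points share their diet groups and library depth. Plin2 was nearest to Rtfdc1 (r = 0.92), the elongase gene Elovl5 (0.91) and the carnitine acetyltransferase gene Crat (0.88). Cidea and Cidec had Limk1, a kinase of the actin cytoskeleton, in common among their nearest genes (r = 0.90 and 0.96). Cidea was otherwise nearest to Igsf11 and Uck1 (0.90 and 0.89), and Cidec to Unc119 and Pitpna (0.91 and 0.88). Cideb had the closest neighbours of any member, Pcbd1, Esd and Cisd3 (0.97, 0.95 and 0.95). Hsd17b13 was nearest to Plin3, a perilipin gene outside the members (0.90). Plin3 stood at 31.4 and 25.7 RPKM in libraries 19 and 20 against 13.9 to 16.5 in the other 4 treated HFD livers. Srxn1 (0.86) and Cstb (0.84) came next. For Plin4 the nearest were Mcm2, Nrbf2 and Nt5e (0.88, 0.88 and 0.87), and for Plin5 Tubb2b, Tubb2a and Insig2 (0.83, 0.83 and 0.82), with library 20 highest of all for both members. Pnpla3 was nearest to Lsp1, Slc50a1 and Gbp2 (0.85, 0.80 and 0.80), G0s2 to Paqr9, Inhbe and Ctf1 (0.75, 0.73 and 0.73) and Pnpla2 to Kdsr, Ifngr2 and Tsen34 (0.76, 0.71 and 0.64).

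Other genes of droplets and triglyceride were read from 5 lists. Over all tested genes, 11.6% were called higher and 18.3% lower with HFD under control antibody. With GCGR antibody on HFD, 5.33% were called higher and 2.12% lower. A list count near these shares is not read as a response of the list. The lists were chosen with earlier results of these data known, so a count above these shares is no independent evidence either. Among 21 tested genes of droplet coats and biogenesis, 4 rose and 3 fell with HFD under control antibody. Mettl7b, which encodes a droplet-associated methyltransferase, rose from 403 ± 22.96 to 566 ± 51.5 RPKM (0.48 ± 0.09, adjusted p = 3.43e-04), and Bscl2, the gene of seipin, which organises droplet birth, by 0.31 ± 0.07 (0.00200). Vps13c, a lipid transfer gene, fell by 0.62 on this scale (adjusted p = 6.39e-04). With GCGR antibody on HFD 2 rose and 2 fell. Hsd17b11, a paralogue of Hsd17b13, rose from 91.1 ± 7.08 to 141 ± 20.2 RPKM without overlap (0.62 ± 0.08, adjusted p = 5.36e-05). Mettl7b fell to 389 ± 52.8 RPKM (-0.55 ± 0.08, adjusted p = 1.86e-04) and Tm6sf2, a gene of VLDL lipidation, changed by -0.61 ± 0.12 (0.00183). The HFD control libraries enter both of these comparisons. With GCGR antibody on chow 0 of the 21 were called, yet the genes named here moved in the same direction. Hsd17b11 changed by 0.27 ± 0.09, Mettl7b by -0.33 ± 0.09 and Tm6sf2 by -0.49 ± 0.12 (limma adjusted p = 0.216, 0.0719 and 0.0502). The count of 4 with HFD went to 2 without library 3, 5, 12, 14 or 17 and to 7 without library 13.

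In the list of triglyceride synthesis, with HFD under control antibody 7 of 17 tested genes rose and 1 fell, where 11.6% and 18.3% of all tested genes did. Among those that rose were Agpat3 (0.40 ± 0.06, adjusted p = 8.44e-05), Mogat1, a monoacylglycerol acyltransferase (from 0.566 ± 0.323 to 4.33 ± 2.33 RPKM, 1.65 ± 0.31, 6.16e-04) and Gpam, which starts the pathway (0.59 ± 0.13, 0.00224). On HFD the antibody called 0 of the 17 with limma, with 6 at an unadjusted p under 0.05 and 0 by the rank-sum test, and 1 without library 11, 16 or 19. In the hydrolysis list 3 of 18 rose and 6 fell with HFD under control antibody, where 11.6% and 18.3% of all tested genes did. Mgll, which cuts monoacylglycerol, rose (1.22 ± 0.17, adjusted p = 1.99e-05), while the carboxylesterases Ces2a and Ces2c fell (-2.51 ± 0.17 and -1.29 ± 0.24, adjusted p = 1.01e-09 and 5.10e-04). With GCGR antibody on HFD 5 of these 18 rose and 1 fell, where 5.33% and 2.12% of all tested genes did. Ces1g, a carboxylesterase, rose from 76.7 ± 16.3 to 155 ± 17.7 RPKM (1.02 ± 0.13, adjusted p = 2.21e-05) and Lipc, hepatic lipase, from 45.7 ± 8.78 to 70.2 ± 7.07 (0.62 ± 0.11, 9.42e-04). Pnpla7, a lysophospholipase of the same family as Pnpla2 and Pnpla3, fell from 28.7 ± 4.41 to 18.6 ± 1.61 (-0.59 ± 0.09, 1.30e-04). The count of 5 was 3 without library 12, 14, 17, 18, 21, 22 or 23. Carboxylesterases are a multigene family with similar copies, so their values are uncertain.

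PPARs are fatty acid receptors known to drive several perilipin and CIDE genes, and their list holds the receptors and targets other than the members. With HFD under control antibody 14 of 22 rose and 0 fell, where 11.6% and 18.3% of all tested genes did. The median log2 fold change was 0.69 against -0.03 for all tested genes. Fabp2, a fatty acid binding protein gene, rose from 36.5 ± 12.5 to 213 ± 37.3 RPKM (2.56 ± 0.23, adjusted p = 5.99e-08), and Vnn1, a pantetheinase gene, by 1.71 ± 0.22 (1.14e-05). With GCGR antibody on HFD 0 of 22 were called with limma, with 7 at an unadjusted p under 0.05 and 0 by the rank-sum test. The median was -0.20 against 0.05 for all tested genes, and 4 of the 22 were called lower without libraries 19 and 20 together (469 of all tested genes were). Without single libraries 1, 5, 11, 13 or 20, 1 was called lower, and without library 19, 2. Nearest to the threshold were Fabp2 (213 ± 37.3 and 139 ± 52.2 RPKM, adjusted p = 0.0669), Acot1 (0.0749) and Fabp1 (0.112). In the list of lipogenic regulators and targets 5 of 17 rose and 2 fell with HFD under control antibody, where 11.6% and 18.3% of all tested genes did. Srebf1, the gene of SREBP-1, rose (0.79 ± 0.14, adjusted p = 3.31e-04), as did Nr1h3, the gene of LXR alpha (0.24 ± 0.05, 0.00222), and Mlxipl, the gene of ChREBP, fell from 108 ± 6.01 to 67.7 ± 14.9 RPKM (-0.69 ± 0.11, 1.24e-04). Without library 3 or 15 the count of 5 was 3. With GCGR antibody on HFD 1 of the 17 passed, the desaturase gene Scd1, and it fell (-1.13 ± 0.28, adjusted p = 0.0137). Without libraries 19 and 20, 4 of the 17 were called lower (469 of all tested genes were), and without library 13 or 19, 2 were called lower and 1 higher.

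**Figure D4:**
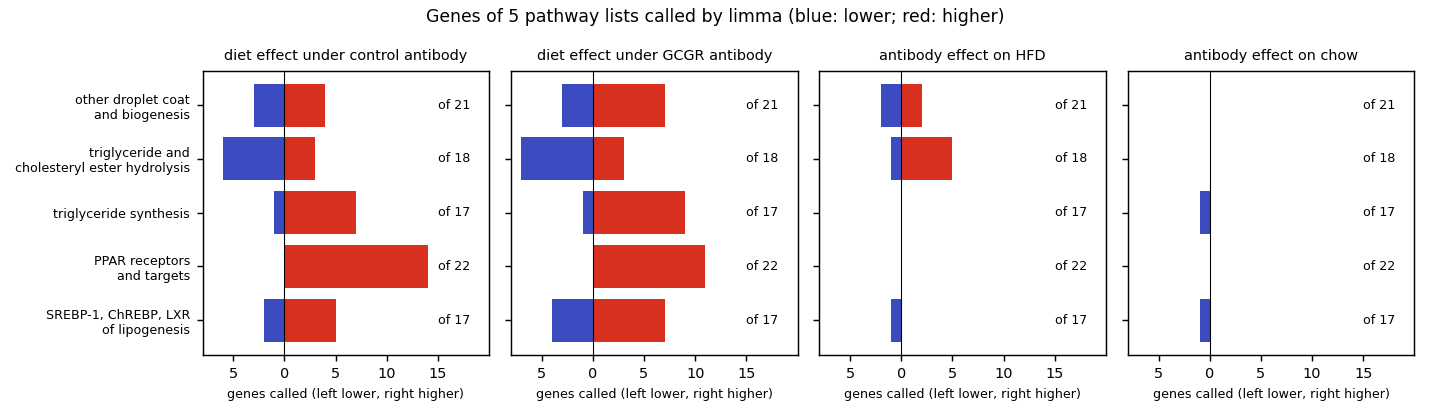
Number of genes called lower (blue, to the left of 0) and higher (red, to the right) in 5 lists of droplet and triglyceride genes (rows) in 4 comparisons (panels); the number at the right of each row is how many genes were tested. The PPAR list has 14 of 22 genes higher with HFD under control antibody and none called between antibodies. Over all tested genes, 11.6% were called higher and 18.3% lower with HFD under control antibody, and 13.2% and 16.6% under GCGR antibody. Between antibodies, 5.33% were called higher and 2.12% lower on HFD, and 0.394% and 0.553% on chow.

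Several members are adipocyte genes, so adipocyte markers are set beside them. Of 8 markers 3 passed the filter on low values, and with HFD under control antibody Cfd and Fabp4 rose and Adrb3 fell. Over all tested genes, 11.6% rose and 18.3% fell in this diet comparison. The summed level of the 8 ranged from 11.8 to 16.5 RPKM on chow and from 23.6 to 109.7 on HFD under control antibody, and with GCGR antibody from 17.97 to 45.7 on chow and from 24.9 to 59.2 on HFD. The part of these markers in the members' values was not tested. Most of the sum was Cfd and Fabp4. Cfd stood at 36.9, 4.40, 14.4, 74.5, 10.7 and 56.1 RPKM in libraries 12 to 17, and Fabp4 at 25.5, 14.8, 43.3, 18.5, 15.8 and 51.02. Both were lower in libraries 13 and 16, where Cidea and Cidec were low, than in the other 4, but with small gaps: Cfd in library 14, where Cidea was highest, was near its level in library 16, and so was Fabp4 in library 15. Adipoq, the defining adipocyte gene, was at 0 in all 6 HFD control libraries, where Cidea reached 24.7, and did not exceed 0.642 in any library. Lep, Retn, Plin1 and Ucp1 were at or under 0.453 RPKM throughout. Of 9 tested macrophage markers 1 rose, and of 7 stellate cell and matrix markers 0 were called (1 at an unadjusted p under 0.05, 1 by the rank-sum test), with HFD under control antibody; with GCGR antibody on HFD 0 of either were called (0 and 2 at an unadjusted p under 0.05, 0 by the rank-sum test). In that antibody comparison 5.33% of all tested genes rose and 2.12% fell. There 1 of 3 tested adipocyte markers, 1 of 5 tested sinusoidal endothelial markers and 1 of 2 T cell markers rose. Adrb3 averaged 2.67 RPKM with control and 4.75 with GCGR antibody on HFD. In the same comparison 0 of 2 bile duct markers were called (0 at an unadjusted p under 0.05, 0 by the rank-sum test). Of 6 hepatocyte markers 1 rose and 1, Alb, fell (-0.37 ± 0.09, adjusted p = 0.0137).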

How the data were processed

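Per the labels' protocols, the authors made strand-specific mRNA libraries and sequenced single reads of 33 cycles. The submitters' processing notes name GRCm38, FastQC and bcl2fastq 2.17. Which aligner, counter, annotation and strand setting lie behind the values is not stated there. RPKM values were deposited as 1 table, whose 23 library columns were matched by name to the sample titles. RPKM is not a count, so no count model was used, and total reads are unknown. Reads behind Cidea were read from whole-read steps after relative depth was estimated from 26 genes at single reads.

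Values were tested as log2(RPKM + 1), a pseudocount of 1, with limma 3.58.1 in R 4.3.3, two-sided with a mean-variance trend. Kept were the 11939 genes that reached an RPKM of 0.5 in 5 or more libraries, all 10 members among them. The fit had 4 group means over 23 libraries, and Benjamini-Hochberg adjusted p values run over all tested genes. Fold changes understate changes of low genes. The code was tested on simulated data. The members and lists were chosen with earlier results of these data known. Every member is named, and of each list at most the 3 genes with the smallest adjusted p in the antibody effect on HFD and in the diet effect under control antibody. The 3 genes most like each member were taken among tested genes whose mean RPKM reached 1. Of the members called in these comparisons, upstream sequence is printed for Plin2, Pnpla3 and Cidec. The alternatives were other pseudocounts, filters, scalings, weights, tests and fits, leaving out each library, and leaving out libraries 19 and 20, which was chosen after seeing the data. Of the gene IDs, 24375 were found in RefSeq (GRCm38.p6).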

Additional observations from a re-analysis of the deposited data

Results flagged for a closer look

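In 8 of the 40 combinations of a member and a group, 1 library lay far from the others of its group by Dixon's test at the 95% level, which flags about 1 in 20 groups by chance. In GCGR antibody on HFD, library 20 was far above the others for Plin4 (31.5 RPKM, the next at 8.96) and Plin5 (39.8, the next at 15.2) and far below them for G0s2 (38.9, the next at 127). Library 19 of the same group was far above for Cideb (286, the next at 240) and Pnpla2 (32.4, the next at 21.97). On chow, library 9 was low for Cideb (147, the next at 164) and libraries 1 and 6 were high for Hsd17b13 (247 and 225, the next at 212 and 206).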

How the results depend on the processing

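With array weights, the genes called were 228 (chow antibody effect, 113 as reported), 2033 (HFD antibody effect, 889 as reported) and 190 (difference between them, 24 as reported). With the exact rank-sum test they were 0, 0 and, for the diet effect under GCGR antibody, 2267 (3562 as reported). The HFD antibody effect had 423 with its groups alone. The difference had 8 without a filter, 15 with upper-quartile scaling and 131 without libraries 19 and 20. Members called for the HFD antibody effect (2 as reported) were 1 with pseudocounts of 0.1 and 0.01, without a filter, with a filter of RPKM 1 in 10 libraries, with upper-quartile scaling and with its groups alone, 6 with array weights, 0 with the rank-sum test and 5 without libraries 19 and 20. The filter of RPKM 1 left 1 member called for the diet effect under GCGR antibody. The difference had 1 with array weights and 2 without libraries 19 and 20. The cause of these moves was not tested, except that Pnpla3 is no longer tested under the stricter filter.

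Without each library in turn, genes called ranged from 57 to 135 (chow antibody effect), 543 to 1603 (HFD antibody effect; 543 without library 12, 1603 without library 19), 2788 to 3984 and 2938 to 3818 (diet effect under control and GCGR antibody) and 5 to 65 (difference). Members called ranged from 1 to 3 for the HFD antibody effect and from 1 to 2 for the diet effect under GCGR antibody, and stayed at 0, 6 and 0 elsewhere.

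Of 50 member values 14 changed sign under some alternative, and 0 were called where the sign had changed. Of the 14, Hsd17b13 in the HFD antibody effect was called lower without libraries 19 and 20 (-0.28, adjusted p = 0.0494). For the chow antibody effect, Plin5 was -0.014 with median-ratio and -0.0092 with upper-quartile scaling, and leaving out libraries gave Plin2 -0.18 to 0.024, Plin5 -0.073 to 0.13, Pnpla2 -0.079 to 0.046 and Hsd17b13 -0.083 to 0.00020. For the HFD antibody effect, Hsd17b13 ranged from -0.12 to 0.067. For the diet effect under control antibody, Pnpla2 ranged from -0.13 to 0.046. Under GCGR antibody the diet effect was, without libraries 19 and 20, -0.17 (Plin2), -0.19 (Plin4), -0.0022 (Cidea), -0.64 (Cidec) and -0.10 (Hsd17b13), with array weights -0.10 (Plin2) and -0.32 (Cidec), and without each library -0.056 to 0.12 (Plin2) and -0.050 to 0.72 (Cidec). For the difference, Hsd17b13 was -0.12 with array weights, -0.22 without libraries 19 and 20 and -0.067 to 0.12 without each library, where Cideb was -0.071 to 0.015 and Pnpla2 -0.18 to 0.017.

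No paired analysis was possible because the groups share no replicate numbers. Total depth is unknown, and the low counts behind Cidea on chow limit its precision.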
